A study of Mus musculus with 3 samples.

Results

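Malat1, Neat1, Snhg11, Kcnq1ot1, Miat and Snhg6 are long noncoding RNAs of the nucleus or hosts of small nucleolar RNAs. They were taken by symbol from the gene list of a single-cell RNA sequencing study of mouse pancreatic islets, and make up 6 of its 32285 genes. All 6 were in the files. UMIs (unique molecular identifiers, which count captured RNA molecules) were summed by cell class and library.

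The study profiled islet cells from mice 9 months old of 3 genotypes, which the labels call wild type (WT), ASF-KO or SC35-KO. SRSF1 was once called ASF and SRSF2 was once called SC35; they are SR proteins, splicing regulators that bind exons of nascent transcripts. The labels do not say which cells carry the deletion, which promoter drives it, or how many mice went into a library, and they name no other allele or treatment. Each genotype has 1 library, so no spread between mice can be estimated and no test was made. Intervals below are 95% intervals that cover counting error only.

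Malat1 and SR proteins such as SC35 are enriched in nuclear speckles, bodies that store splicing factors. Neat1 is the scaffold of paraspeckles, and its long transcript holds proteins such as NONO and SFPQ together. Kcnq1ot1 is made from the paternal chromosome, antisense to Kcnq1, and silences imprinted genes around it in cis. Miat also collects in its own nuclear domain. Snhg6 and Snhg11 are spliced RNAs that carry small nucleolar RNAs (snoRNAs) in their introns, and the spliced RNAs of many such hosts are exported and broken down when ribosomes engage them.

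The kit primes on poly(A), so the A-rich stretches and 3′ ends of these transcripts bear on what is counted. In GENCODE M21 (GRCm38) Malat1 (ENSMUSG00000092341) lies at chr19:5795690-5802672 and Neat1 (ENSMUSG00000092274) at chr19:5824708-5845478, both on the minus strand. The long forms of both are known to be cleaved after an A-rich tract that the genome itself encodes. That of Neat1 is at the end of the annotated transcript, while Malat1-201 as annotated runs on past its tract. The stretch printed for Malat1 is bases 6595 to 6691 of 6983, with the tract at its end. The lines below show those tracts in capitals, from chr19:5795982-5796078 for Malat1 and from chr19:5824708-5824807 for Neat1. The short Neat1 transcript is shown beside them at chr19:5842307-5842346, with its AATAAA signal in capitals.

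Malat1-201: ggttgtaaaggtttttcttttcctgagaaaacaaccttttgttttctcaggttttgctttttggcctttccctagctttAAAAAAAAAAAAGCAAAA
Neat1-201: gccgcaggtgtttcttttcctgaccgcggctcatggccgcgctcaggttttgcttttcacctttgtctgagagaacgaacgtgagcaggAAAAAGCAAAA
Neat1-202: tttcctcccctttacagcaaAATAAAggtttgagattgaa

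The Malat1 run of 12 A is the longest in its 6983 bases, and the 20771 bases of Neat1-201 hold no run of 9 or more. Kcnq1ot1 (ENSMUSG00000101609, chr7:143203458-143296549, minus strand) is a single exon of 93092 bases that lies within Kcnq1 on the opposite strand. It holds 18 runs of 9 or more A, while 9.81% of all GENCODE M21 transcripts, of any length, hold at least 1. Its longest run has 41 A and is shown in capitals, from chr7:143226925-143227005. Where within these RNAs the counted reads lay is not given in the counts.

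Kcnq1ot1-201: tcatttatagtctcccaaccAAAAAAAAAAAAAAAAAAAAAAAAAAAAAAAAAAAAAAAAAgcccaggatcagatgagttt

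Snhg6 (ENSMUSG00000098234, chr1:9941959-9944118, minus strand) has transcripts of at most 816 bases and hosts Snord87. Snhg11 (ENSMUSG00000044349, chr2:158375638-158386145, plus strand) is typed as protein coding in GENCODE M21 and as a long noncoding RNA in RefSeq. Miat (ENSMUSG00000097767) lies at chr5:112213228-112229395 on the minus strand. Malat1, Kcnq1ot1, Snhg6 and Miat each overlap an annotated gene on the opposite strand (Gm37376, Kcnq1, Mcmdc2 and Gm26953 in that order), and whether the counting used strand is not given in the sources used here.

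Once poor barcodes and doublets had been taken out, 8997 WT cells, 7082 in the ASF-KO-labelled library and 10799 in the SC35-KO-labelled library were kept, with medians of 14300, 16965 and 9871 UMIs. The filter removed 978, 5095 and 2234 barcodes. The kept cells of any pair of libraries shared 11 to 28 barcodes. Cells were gated by their hormone share and by marker genes into classes, of which beta, alpha, delta, gamma and endothelial held at least 100 cells in each library. Insulin RNA was 2.43% of the UMIs of endothelial-gated cells in WT and 5.61% and 4.80% in the other libraries (ASF-KO, then SC35-KO), a class that does not make insulin. The targeted genes do not check the labels: Srsf1 in beta-gated cells stood at 38.5 CPM (UMIs of the gene scaled to 1e+06 UMIs of the sum) in WT and 37.0 in the ASF-KO-labelled library, and Srsf2 at 27.6 in WT and 26.6 in the SC35-KO-labelled library. In endothelial-gated cells Srsf2 stood at 76.8 CPM in WT and 128 in the SC35-KO-labelled library. A 3′ count outside the deleted part would not show a deletion. Below, ASF-KO and SC35-KO name the libraries so labelled.

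Malat1 was the most abundant member and was lower in both libraries labelled KO in all 5 classes. In beta-gated cells it stood at 12121 CPM (interval 12101 to 12142) in WT, at 8032 (8015 to 8049) in the ASF-KO library and at 6171 (6155 to 6187) in the SC35-KO library. Alpha-gated cells held 26277, 19054 and 13221 CPM in the same order. Delta-gated cells held 37006, 26280.5 and 19359. Endothelial-gated cells, with far fewer UMIs each, held 28574, 18826 and 14518. WT was highest and the SC35-KO library lowest in each class, and no intervals overlapped. Gamma-gated cells followed the same order, at 37628, 28106 and 18308 CPM, from 239, 100 and 270 cells.

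**Figure D1:**
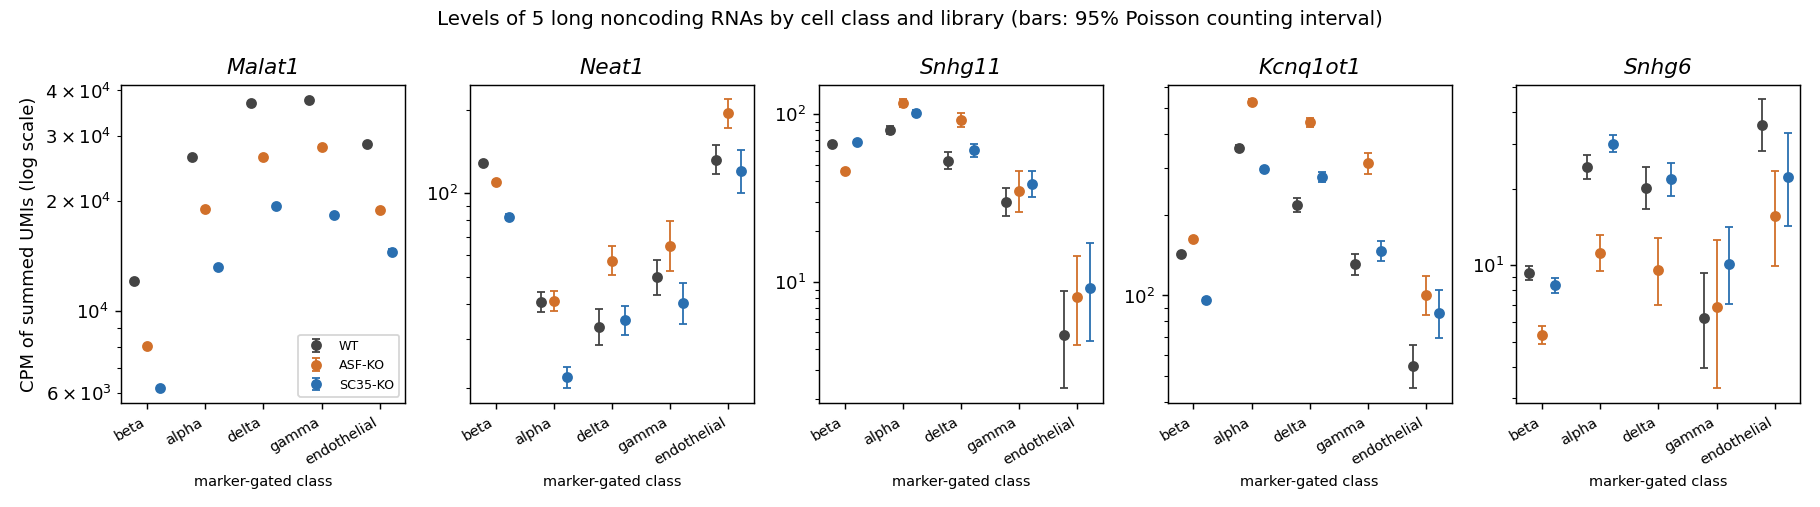
Level of 5 long noncoding RNAs (CPM of summed UMIs, log scale) in 5 marker-gated cell classes and 3 libraries; points are class sums and bars the 95% Poisson counting interval. Malat1 runs from WT down to the SC35-KO library in every class shown, while Kcnq1ot1 is highest in the ASF-KO library in every class shown.

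Beta-gated cells had the lowest Malat1 share in every library, between 3.10-fold and 3.50-fold under the highest class. Insulin and the other hormones take a large part of their UMIs (61.5% of the beta sum in WT with the mitochondrially encoded genes, 71.1% and 71.5% in the other libraries (ASF-KO, then SC35-KO)). Per cell, beta, alpha and delta were close in WT and gamma stood apart: the mean was 277 Malat1 UMIs in WT beta-gated cells, 264 in alpha, 286 in delta and 583 in gamma. In the SC35-KO library the same classes held 112, 105, 107 and 234 UMIs per cell, and in the ASF-KO library 224, 175, 202 and 411. With hormone and mitochondrially encoded genes left out of the total, WT beta-gated cells rose to 31508 CPM, above the 30367 of endothelial cells, and gamma stayed highest at 92327. Pericyte-gated cells, which had under 100 cells in each library, held more Malat1 than any of the 5 classes, at 70030 CPM in WT, 51463 in the ASF-KO library and 31465 in the SC35-KO library.

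The Malat1 ratio of the SC35-KO library to WT was 0.509 (0.508 to 0.511) in beta-gated cells, 0.503 in alpha, 0.523 in delta, 0.487 in gamma and 0.508 in endothelial. The ratio of the ASF-KO library to WT was 0.663 (0.661 to 0.664) in beta, 0.725 in alpha, 0.710 in delta, 0.747 in gamma and 0.659 in endothelial. These ratios scale to all UMIs. The median gene itself had a ratio of 0.741 in ASF-KO beta-gated cells and 0.739 in SC35-KO cells, where insulin took more of the total, and of 1.38 in ASF-KO gamma-gated cells. Relative to the median gene, Malat1 stood at 0.894 in ASF-KO beta-gated cells and at 0.542 to 0.703 in the other 4 classes. In SC35-KO it stood at 0.689 in beta and at 0.491 to 0.575 in the others. Every ratio to WT of Malat1 stayed below 1 under all 10 settings of cell choice and scaling.

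**Figure D2:**
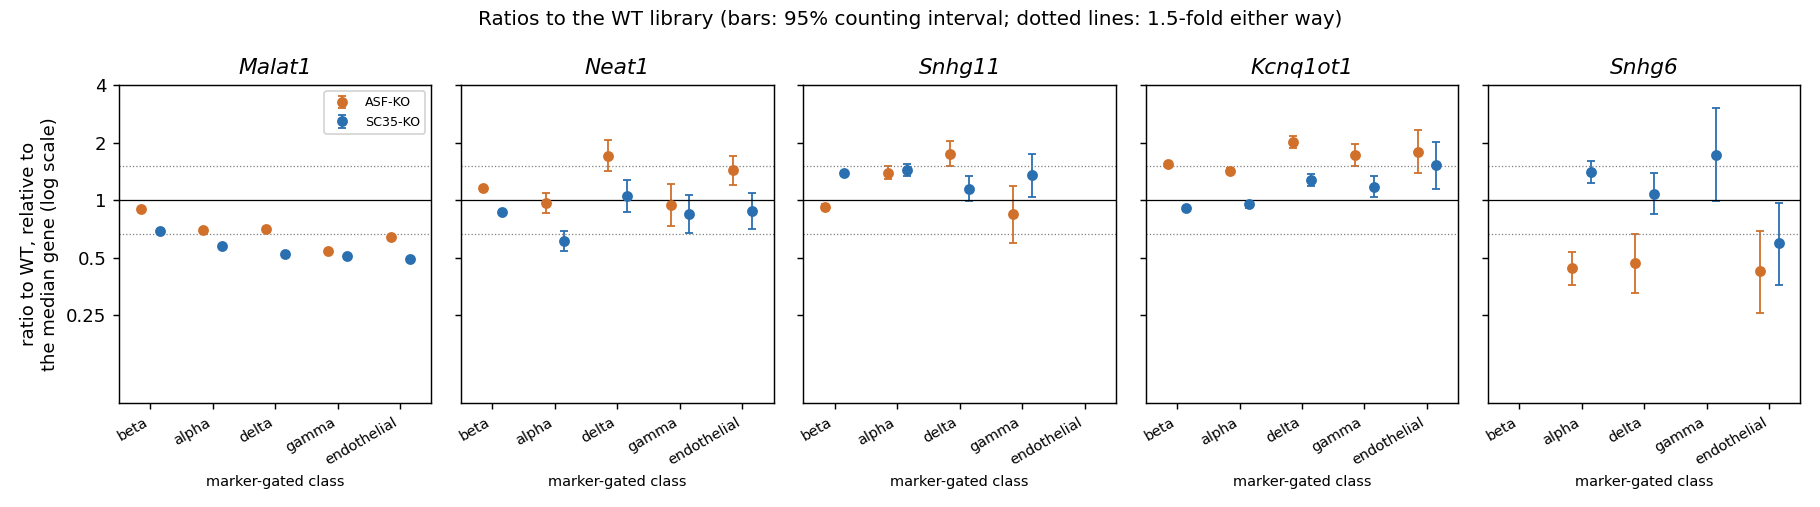
Ratio of each library labelled KO to WT, relative to the median gene (log scale), for the members with at least 10 CPM in the class; bars are 95% counting intervals and dotted lines mark 1.5-fold either way. Malat1 lies below 1 in each class in both KO libraries, and Kcnq1ot1 between 1.42 and 2.01 in ASF-KO.

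A member was counted where it stood at least 1.5-fold from WT after division by the median gene, among those with 10 CPM in WT or the other library. The share of all genes past the same fold is given beside each count. In ASF-KO beta-gated cells, 1 of 4 measured members was higher (Kcnq1ot1; 9.05% of all genes) and none lower (8.11%). Alpha-gated cells had none of 5 higher (4.43%) and 1 lower, Snhg6 (6.81%). Delta-gated cells had 3 of 5 higher, Neat1, Snhg11 and Kcnq1ot1 (5.56%), and Snhg6 lower (7.8%). In gamma-gated cells Kcnq1ot1 was higher (9.32%) and Malat1 lower (13.1%), of 4. In endothelial-gated cells Kcnq1ot1 was higher (9.29%), and Malat1 and Snhg6 lower (12.6%), of 4.

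In the SC35-KO library no measured member of 4 was past the fold in beta-gated cells, higher (3.59%) or lower (2.58%). Alpha-gated cells had none of 5 higher (2.5%) and Malat1 and Neat1 lower (2.77%). In delta-gated cells none of 5 was higher (3.38%) and Malat1 was lower (4.02%). In gamma-gated cells, of 5, Snhg6 was higher (6.69%) from 23 and 35 UMIs, and Malat1 lower (8.14%). In endothelial-gated cells Kcnq1ot1 was higher (7.25%), and Malat1 and Snhg6 lower (10.9%), of 4. Both sets of ratios share the WT library. Between 4 and 5 members were measured in a class, so a single member is a larger share of them than any background given here.

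The libraries labelled KO were also set against each other, without WT, by the same fold. Among beta-gated cells Snhg11 was higher in SC35-KO than in ASF-KO, at 1.51 (7.08% of all genes), and Kcnq1ot1 lower, at 0.595 (7.56%), of 4. Alpha-gated cells had Snhg6 higher, at 3.17 (7.12%), and Neat1 and Kcnq1ot1 lower (5.92%), of 5. Delta-gated cells had Snhg6 higher, at 2.27 (6.5%), and Neat1, Snhg11 and Kcnq1ot1 lower (5.28%), of 5. For gamma-gated cells, Snhg11 and Snhg6 were higher (11.6%) and none lower (8.6%), of 5. No member of 4 was higher in endothelial-gated cells (10.6%), and Neat1 was lower, at 0.620 (10.3%). Malat1 lay below the median gene in each class here too, from 0.733 to 0.937, but past the fold in none.

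The relation of cell depth to the Malat1 share differed between libraries and rested on the scaling. Within a class and library, the Spearman correlation over cells of the Malat1 share with total UMIs ran from -0.16 (3935 ASF-KO beta-gated cells) to 0.27 (1499 SC35-KO delta-gated cells) and was positive in 10 of 15 combinations of class and library. Without hormone and mitochondrially encoded UMIs it ran from -0.13 (ASF-KO endothelial) to 0.37 (SC35-KO delta) and was positive in 14 of 15, with ASF-KO beta at 0.13, WT beta at 0.31 and SC35-KO beta at 0.32. Both quantities share the cell's UMIs. ASF-KO beta-gated cells went from 10373 CPM in the shallowest quintile to 7260 in the deepest, a ratio of 0.700 (0.695 to 0.705), while their insulin share went from 56.4% to 65.8%. Without hormone and mitochondrially encoded genes that ratio was 0.891. WT beta-gated cells held 11564 and 11282 CPM at the same ends, and SC35-KO cells 6492 and 6001; without those genes their ratios turned to 1.16 in both. Delta-gated cells were higher at the deep end on either scale, going from 14712 to 23077 CPM in SC35-KO and from 31605 to 40752 in WT, with ratios of 1.58 and 1.34 without those genes. At every depth quintile of the beta, alpha and delta classes, WT lay above both other libraries.

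**Figure D3:**
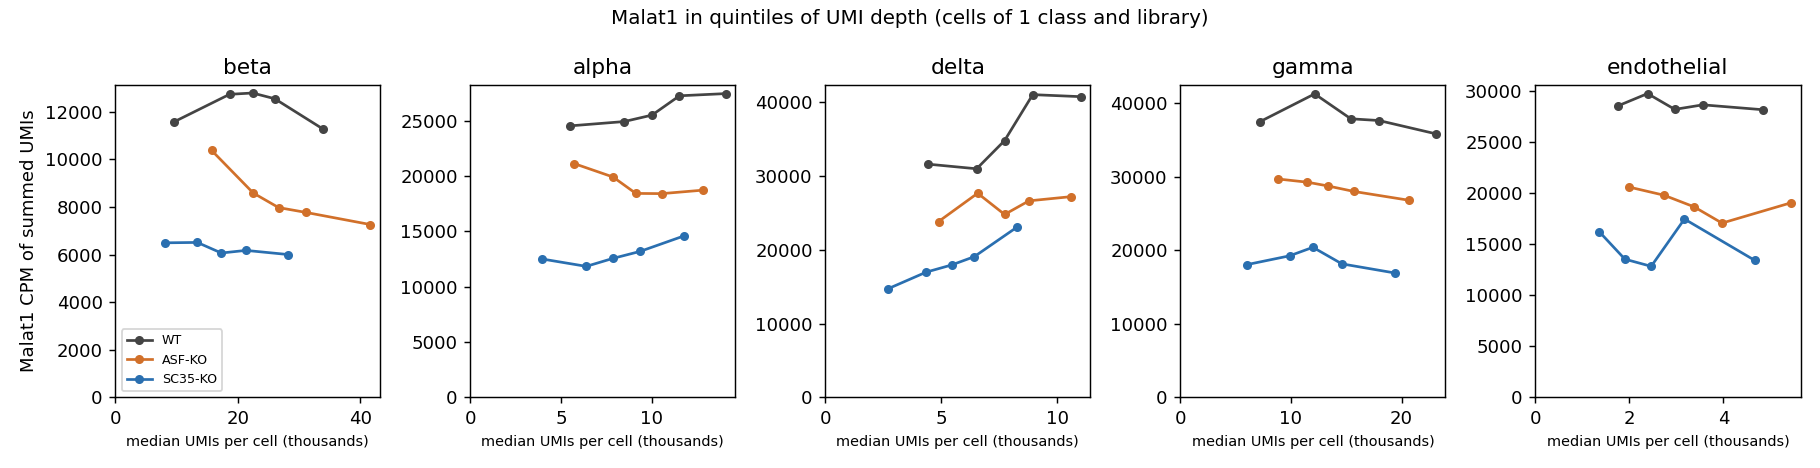
Malat1 level (CPM of summed UMIs) against the median depth of each quintile of cells (total UMIs in units of 1000) in 5 classes; each line is a library. The WT line lies above the others in each class, and the beta line of the ASF-KO library falls from 10373 to 7260 CPM.

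The spread of Malat1 between cells also differed between libraries. In alpha-gated cells the share of a cell's UMIs ran in WT from 0.259% at the 5th percentile to 5.39% at the 95th, with a median of 2.43%. In the SC35-KO library it ran from 0.115% to 3.14%, with a median of 1.09%. In the ASF-KO library it ran only from 0.829% to 3.31%, with a median of 1.80%. The ratio of the 95th to the 5th percentile was thus 20.8 in WT, 27.4 in SC35-KO and 3.996 in ASF-KO. Endothelial-gated cells had 33.0, 53.3 and 4.86, and delta-gated cells 13.5, 19.2 and 3.597.

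Outside the beta class, the ASF-KO library had fewer cells with little Malat1. Cells with under 0.5% of UMIs in Malat1 made up 10.1% of WT alpha-gated cells, 22.2% of SC35-KO cells and 1.15% of ASF-KO cells. In endothelial-gated cells these shares were 16.1%, 31.4% and 3.61%, in delta 5.06%, 14.6% and 0.800%, and in gamma 5.02%, 11.9% and 3.0%. Beta-gated cells went the other way, with 16.03% in WT, 50.2% in SC35-KO and 19.6% in ASF-KO. There the median is itself low, and the spreads were 9.27 in WT, 13.9 in SC35-KO and 5.11 in ASF-KO. Among cells of 5000 to 20000 UMIs, a restriction set after the data were seen, the alpha spreads were 18.1, 22.7 and 3.58, but the beta spreads came close together for WT and ASF-KO, at 11.8 and 10.99, with 16.4 in SC35-KO. The filter removed 5095 barcodes of the ASF-KO library against 978 of WT, and the part of that in the narrower spread was not tested.

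**Figure D4:**
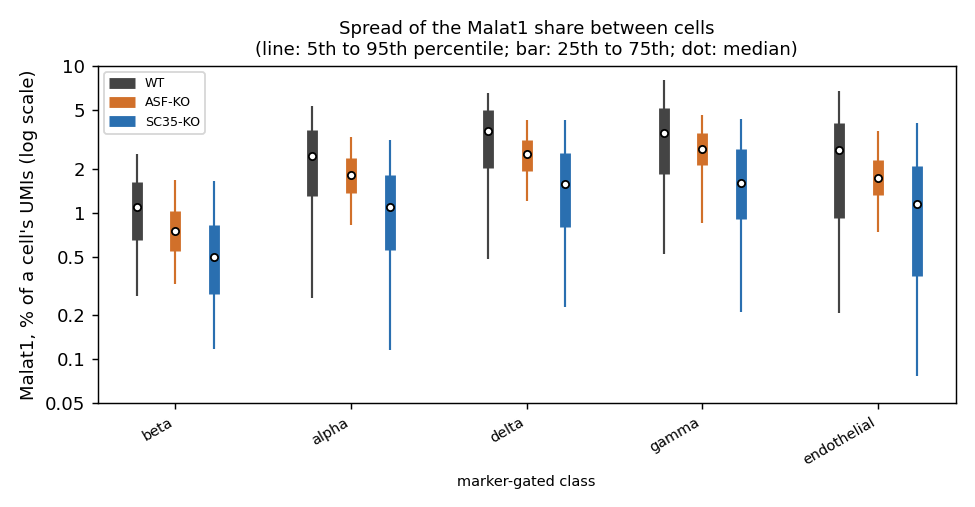
Share of each cell's UMIs in Malat1 (percent, log scale) by class and library; thin lines run from the 5th to the 95th percentile, thick bars from the 25th to the 75th, and dots mark medians. The lines of the ASF-KO library are the shortest in each class shown.

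Genes whose class sums went with Malat1 were ranked by Pearson correlation of log2(CPM + 1) over the 15 sums, among 3790 genes. The 5 highest were Ubb, a polyubiquitin gene (0.936), Dnajb4, an HSP40 co-chaperone (0.877), Wdr43 (0.862), Yif1a (0.852) and Zfp326 (0.850). For Neat1 they were Ttc28 (0.845), Oxct1 (0.820), Dnajb11 (0.802), Tssc4 (0.775) and Lrrfip2 (0.764). The sums share libraries and classes, so these are descriptions of 15 dependent points.

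Many genes of heat shock and early stress were lower in the endocrine cells of the SC35-KO library, as Malat1 was. Of 11 measured in alpha-gated cells, 9 were lower by the same fold (2.77% of all genes) and none higher (2.5%), with a median log2 ratio of -0.91 relative to the median gene (0.00 for all genes). The co-chaperone Dnajb1 went from 430 CPM in WT to 105, the chaperone Hspa1a from 660 to 212 and the stress transcription factor Atf3 from 47.7 to 2.13. Delta had 8 of 10 lower (4.02%), gamma 7 of 11 (8.14%) and beta 3 of 10 (2.58%), with none higher. In endothelial-gated cells, where the Malat1 ratio was 0.508, 2 of 11 were lower (10.9%) and 1 was higher (7.25%), the early gene Egr1, from 441 to 973 CPM (2.13 relative to the median gene), with the early gene Fos at 1.36. In ASF-KO the list was mixed: 3 of 11 were lower in alpha-gated cells (6.81%), and in beta-gated cells 3 of 10 were higher (9.05%). Among these, the early gene Jun went from 171 to 321 CPM and the endoplasmic reticulum chaperone Hspa5 from 478 to 1063. In ASF-KO gamma Hspa1b (0.387), Hsph1 (0.468), Atf3 (0.567) and Hspa1a (0.646) were lower (13.1%) and none higher (9.32%). In endothelial Hspa1b (0.380), Hspa1a (0.531), Dnajb1 (0.636) and Xbp1 (0.661) were lower (12.6%) and Egr1 (1.98) higher (9.29%). In delta Hspa1b (0.554) was lower (7.8%), and Fos (1.61) and Jun (1.65) higher (5.56%). The part of dissociation or stress in the Malat1 levels was not tested.

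Neat1 was highest in endothelial- and beta-gated cells, with beta ahead on a total free of hormone and mitochondrial genes. In beta-gated cells it stood at 128 CPM (126 to 131) in WT, 110 (108 to 112) in the ASF-KO library and 82.3 (80.4 to 84.2) in the SC35-KO library. Endothelial-gated cells held 132, 194 and 120 CPM, from 274, 284 and 130 UMIs. Alpha-gated cells held 40.9, 41.2 and 21.9, and delta-gated cells 33.3, 57.4 and 35.0. Alpha and delta were thus the low classes, and in WT their intervals overlapped (37.6 to 44.4 and 28.6 to 38.5). Ductal-gated cells, with 62 WT cells, 8 ASF-KO cells and 23 SC35-KO cells, held more than any of the 5 classes, at 723 (670 to 780), 604 (421 to 840) and 278 (224 to 340) CPM.

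Relative to the median gene, Neat1 in the SC35-KO library was lower in alpha-gated cells, at 0.611 (0.540 to 0.691), and near WT in delta, at 1.05 (0.868 to 1.27). The library labelled ASF-KO stood at 1.71 (1.41 to 2.07) in delta-gated cells and 1.43 (1.21 to 1.69) in endothelial, but at 0.966 (0.858 to 1.09) in alpha. In beta-gated cells its Neat1 ratio was 0.855 scaled to all UMIs and 1.15 relative to the median gene, so the direction there rests on the scaling. Neat1 in ASF-KO delta went from 23.4 CPM in the shallowest depth quintile to 77.0 in the deepest, 3.29-fold (1.84 to 6.37). In ASF-KO beta that ratio was 0.640 (0.603 to 0.680), or 0.815 without hormone and mitochondrially encoded genes. The ASF-KO delta ratio to WT ran from 1.36 to 1.87 over 10 settings. The part of depth in it was not tested. The paraspeckle proteins were mostly near the median gene. Of 14 measured in ASF-KO beta-gated cells, 1 was lower (8.11% of all genes), Rbm14 (0.474), and none higher (9.05%), with a median log2 ratio of -0.13. Rbm14 was also the one lower in ASF-KO alpha (0.636, beside 6.81% of all genes) and delta (0.492, beside 7.8%). Hnrnph1 was the one past the fold in endothelial, at 1.53 (9.29%). Gamma-gated cells had 1 higher, Hnrnph1 at 1.69 (9.32%), and 2 lower, Rbm14 and Hnrnph3 (13.1%). In SC35-KO none of 14 was past the fold in beta-, alpha- or delta-gated cells, where 2.5% to 4.02% of all genes were in either direction. In gamma 2 were higher, Hnrnph1 and Matr3 (6.69%). In endothelial Hnrnph1 was higher, at 1.59 (7.25%), and Taf15 lower, at 0.622 (10.9%). Nono stood at 0.847 in ASF-KO and 1.03 in SC35-KO in beta-gated cells, and Sfpq at 0.734 and 0.883.

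Proteins of the nuclear speckle, where Malat1 collects, were mostly near the median gene. Of 32 measured in ASF-KO beta-gated cells, 3 were higher (9.05% of all genes were), the SR proteins Srsf2 (2.64) and Srsf3 (1.62) and the SR-related protein Pnn (1.66), and 1 was lower (8.11%), the kinase Clk1 (0.649). The higher count in this class is close to the share of all genes. In SC35-KO 1 of 32 was lower (2.58%), the speckle core protein Son (0.658), and none higher. The list medians were 0.11 and 0.02 on the log2 scale. Son was low in ASF-KO too, at 0.680 in beta, 0.672 in alpha, 0.621 in delta, 0.523 in gamma and 0.610 in endothelial. In SC35-KO it stood at 0.653 in alpha, 0.613 in gamma and 0.648 in endothelial. In alpha-gated cells 3 of 32 were higher in ASF-KO (4.43%) and 1 lower in SC35-KO (2.77%). Srsf2 was higher in ASF-KO alpha (1.89), delta (1.87, beside 5.56% of all genes) and endothelial (2.25, beside 9.29%), and stood at 1.48 in gamma. It was also higher in SC35-KO endothelial, at 1.62 (7.25%).

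Kcnq1ot1 was the member that stood higher in the ASF-KO library in all 5 classes. In alpha-gated cells it held 356 CPM (346 to 366) in WT, 527 (515 to 539) in ASF-KO and 296 (288 to 303) in SC35-KO. In delta-gated cells it held 217, 442 and 277 CPM. Beta-gated cells held 142, 163 and 96.1, gamma 131, 311 and 147, and endothelial 54.6, 100.2 and 85.9. The library labelled ASF-KO was highest in each class, and the 3 intervals were apart in beta, alpha and delta. Alpha-gated cells were the highest class in every library, with an interval that met that of delta in the SC35-KO library.

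The ratio of the ASF-KO library to WT was 1.15 (1.12 to 1.17) in beta, 1.48 in alpha, 2.03 (1.89 to 2.19) in delta, 2.38 in gamma and 1.84 in endothelial. Relative to the median gene these ran from 1.42 in alpha to 2.01 in delta, with beta at 1.55. Each stayed above 1 under all 10 settings of cell choice and scaling. In SC35-KO, Kcnq1ot1 stood at 0.913 relative to the median gene in beta, 0.949 in alpha, 1.27 in delta, 1.17 in gamma and 1.52 (1.14 to 2.02) in endothelial. After thinning each cell to 2000 UMIs, 41.0% of WT alpha-gated cells had a Kcnq1ot1 UMI, 57.7% of ASF-KO cells and 37.3% of SC35-KO cells. Unthinned shares were 78.5%, 90.5% and 71.2%. Thinned endothelial-gated cells gave 11.7%, 16.4% and 12.6%, so the shares of the classes differed.

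Of 12 genes of the imprinted region around Kcnq1ot1, 5 reached 10 CPM in beta-gated cells. Kcnq1 itself, Cdkn1c, Phlda2, Slc22a18, Ascl2, Igf2 and H19 did not. In ASF-KO beta-gated cells the histone chaperone Nap1l4 stood at 36.2 CPM against 26.7 in WT (1.83 relative to the median gene) and Tssc4 at 64.8 against 49.6 (1.76). The channel gene Trpm5 was lower there (0.660). Of all genes, 9.05% were higher by the fold in that class and 8.11% lower. In ASF-KO alpha-gated cells 3 were measured and none was past the fold (4.43% of all genes higher, 6.81% lower), with Nap1l4 at 1.40 and Tssc4 at 1.01. Nap1l4 was higher in ASF-KO gamma-gated cells, at 1.62 (9.32%). Endothelial-gated cells did hold Kcnq1 and Cdkn1c, at 17.9 and 34.3 CPM in WT and 25.2 and 38.2 in ASF-KO. Relative to the median gene they stood at 1.38 and 1.09. No measured gene of the region was past the fold there in ASF-KO (9.29% of all genes higher, 12.6% lower). In SC35-KO none was past the fold in beta (3.59% of all genes higher, 2.58% lower) or alpha (2.5% and 2.77%).

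Within a class, cells with a large Malat1 share also held more Kcnq1ot1. Cells of each class and library were split into quintiles by Malat1 share, a split made after the data were seen, and levels were scaled to a total without Malat1, hormone and mitochondrially encoded genes. In WT alpha-gated cells Kcnq1ot1 went from 137 CPM in the lowest quintile through 360, 536 and 634 to 861 in the highest, 6.31-fold (5.50 to 7.27). In the SC35-KO library it went from 135 to 877, 6.50-fold. In the ASF-KO library it went from 573 to 1108, 1.93-fold. The libraries were thus furthest apart in the lowest quintile.

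Among all genes with 50 CPM in either quintile, Kcnq1ot1 had the highest such ratio of 4470 in WT beta-gated cells (2.93), ranked 2 of 3599 in alpha and 1 of 4287 in delta (5.36). In SC35-KO it ranked 1 of 4487 in beta (3.41), 3 of 3610 in alpha and 5 of 4491 in delta (5.71). In ASF-KO it ranked 18 of 4375 (1.88), 45 of 3923 and 365 of 4585 (1.67). The median gene had a ratio of 1.10, 1.16 and 1.10 in the WT classes. These values describe cells of 1 library each and carry no test.

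Several other long noncoding RNAs went the same way in WT alpha-gated cells, but not Snhg6. In WT alpha-gated cells the ratio was 0.607 (0.415 to 0.883) for Snhg6, 2.88 for Snhg11, 2.56 for Neat1 and 2.56 for the imprinted long noncoding RNA Meg3, and the long noncoding RNA Lncpint was among the 5 highest genes in WT beta (2.60) and alpha (5.57). The rank of Neat1 among all genes varied by class. Its ratio was 1.47 in WT beta (rank 534 of 4470) and 1.53 in WT delta (705 of 4287). It was 1.34 in SC35-KO beta (1116 of 4487) and 1.28 in ASF-KO delta (1315 of 4585). It was 4.59 in WT endothelial (16 of 3648) and 2.21 in ASF-KO alpha (7 of 3923). Snhg11 stood at 1.63 in WT beta and 2.48 in WT delta, and Meg3 at 1.66 in WT beta and 3.16 in SC35-KO alpha. Nuclear speckle protein mRNAs had a median ratio of 1.66 over 31 genes in WT alpha, 1.28 in ASF-KO and 1.73 in SC35-KO. The translation genes that carry a 5′ terminal oligopyrimidine (TOP) tract, such as those of ribosomal proteins, had medians of 0.831, 0.829 and 0.795 over 14 genes. The snoRNA hosts other than Snhg6 and Snhg11 had medians of 0.868, 0.990 and 0.873 in alpha, and 1.10 in WT endothelial-gated cells, over 5 hosts. Depth was close across the WT alpha quintiles, with median totals of 8992 UMIs in the lowest and 10154 in the highest, and median mitochondrial shares of 2.61% and 2.38%. In delta the Malat1 share rose with depth (Spearman 0.26 in WT, 0.27 in SC35-KO). Kcnq1ot1 in the deepest quintile of depth was 1.62 and 1.56 times the shallowest there, and 0.877 and 0.850 times in beta. In SC35-KO beta-gated cells the Malat1 share went with the mitochondrial share (0.25). The part of depth in the splits was not tested.

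**Figure D5:**
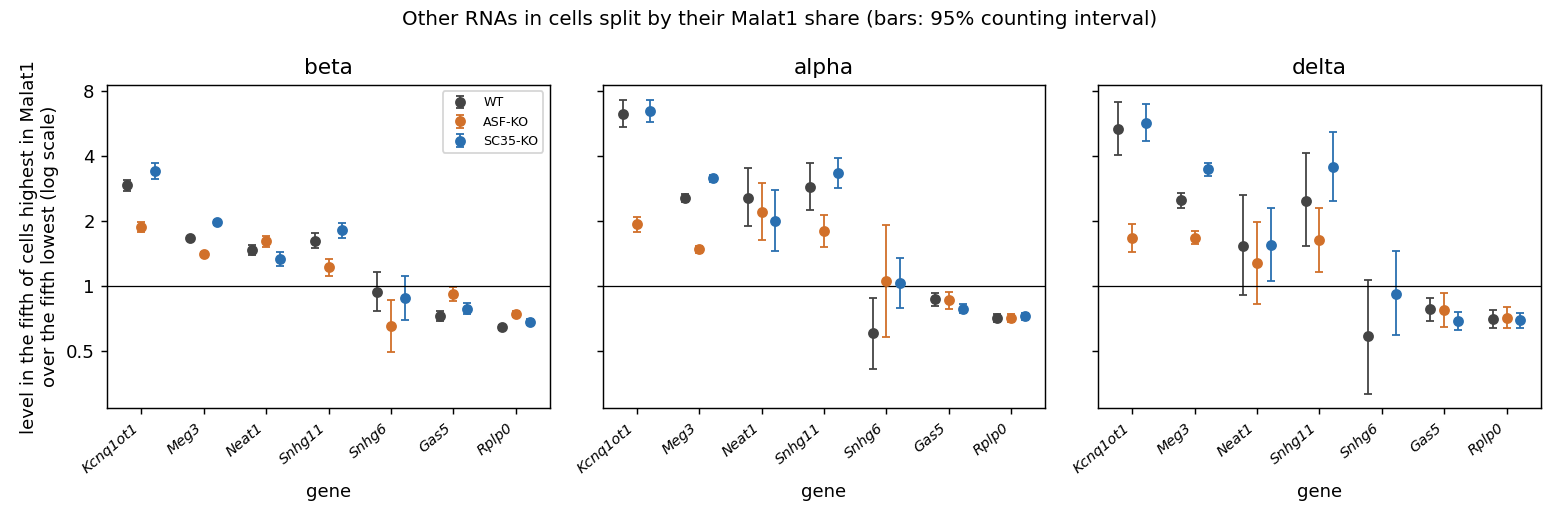
Level of 7 RNAs in the quintile of cells with the highest Malat1 share over that in the lowest (log scale), in beta-, alpha- and delta-gated cells of 3 libraries; bars are 95% counting intervals and Snhg6 is left out where it had too few UMIs. Kcnq1ot1 has the highest ratios in WT and in the SC35-KO library, at 6.31 and 6.50 in alpha, and 1.93 in the ASF-KO library.

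A small cluster of cells had Malat1, Kcnq1ot1 and Neat1 among its 10 leading genes, with Gm26917 and Meg3 at the head. The other leading genes were A330076H08Rik and the protein-coding genes Mlxipl, Lars2, Snrnp70 and Peg3. The cluster held 155 WT cells, 246 ASF-KO cells and 138 SC35-KO cells. Most were in no gated class (146, 219 and 119). Their median depths were 1501, 1480 and 1306 UMIs, and Malat1 took 16.4%, 9.29% and 9.41% of their UMIs. The cluster was left unnamed, and those genes were part of what defined it. No member ratio moved by more than counting error without this cluster, but most of its cells were never in the class sums, so little could move. Malat1 was also 5.92% of the UMIs of the 275 WT barcodes removed for over 20% mitochondrial UMIs, against 3.19% and 3.26% of the 665 and 1176 barcodes removed for this in the other libraries (ASF-KO, then SC35-KO).

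Snhg11 was an RNA of the endocrine classes. In WT it stood at 80.3 CPM in alpha-gated cells, 66.7 in beta, 52.7 in delta and 29.99 in gamma, against 4.83 (2.32 to 8.88) in endothelial cells, where 10 UMIs were counted. The library labelled ASF-KO held 116.5, 45.6, 92.8, 34.9 and 8.18 CPM in the same order, and the SC35-KO library 101.1, 68.1, 60.9, 38.5 and 9.24. With cells thinned to 2000 UMIs, 12.1% of WT beta-gated cells had a Snhg11 UMI and 1.32% of WT endothelial-gated cells. Relative to the median gene it was higher in ASF-KO in delta, at 1.74, and stood at 1.39 (1.29 to 1.504) in alpha and 0.922 (0.889 to 0.956) in beta. In SC35-KO it stood at 1.38 in beta, 1.44 in alpha and 1.15 (0.993 to 1.33) in delta.

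Snhg6 was low in the alpha, delta and endothelial classes of the ASF-KO library. In alpha-gated cells it stood at 24.4 CPM (21.8 to 27.1) in WT, 11.2 (9.49 to 13.1) in ASF-KO and 29.997 (27.8 to 32.4) in SC35-KO, from 338, 152 and 661 UMIs. Delta-gated cells held 20.2, 9.57 and 21.9 CPM, and endothelial-gated cells 35.7, 15.7 and 22.2. The ratio of ASF-KO to WT was 0.459 (0.377 to 0.558) in alpha, 0.474 (0.329 to 0.674) in delta and 0.439 (0.262 to 0.709) in endothelial. In delta it turned to 1.08 when cells were thinned to 2000 UMIs, where 21 cells had a UMI in each library. Beta-gated cells lay under the minimum of 10 CPM, at 9.32, 5.31 and 8.34 CPM, and so were not counted; their ASF-KO ratio was 0.570 (0.514 to 0.632), or 0.770 relative to the median gene. Gamma-gated cells held 6.21, 6.84 and 10.1 CPM, from 23, 10 and 35 UMIs, and there ASF-KO was not low: its ratio to WT was 1.10 (0.468 to 2.41).

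The other snoRNA hosts were also low in ASF-KO, a list that holds Snhg6 and Snhg11 themselves. Of 15 measured in alpha-gated cells, 9 were lower (6.81% of all genes) and none higher (4.43%), with a median log2 ratio of -0.80 relative to the median gene. Gas5, a host known to gather when translation or growth slows, went from 629 to 377 CPM, Zfas1 from 170 to 81.7, Snhg8 from 356 to 193 and Snhg3 from 73.6 to 30.4. In delta-gated cells 9 of 13 were lower (7.8%), with 1 higher (Snhg11; 5.56%) and a median of -0.85. In gamma 8 of 12 (13.1% of all genes; median -0.87) and in endothelial 8 of 12 (12.6%; median -0.94) were lower, and none higher. In beta-gated cells the median was -0.44: 2 of 10 were lower (8.11%), Zfas1 (0.423) and Snhg12 (0.622), and Snhg18 was higher (2.95; 9.05% of all genes), at 25.7 CPM against 11.7.

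In the SC35-KO library the hosts lay the other way in beta-gated cells, with 3 of 10 higher (Snhg1 at 1.52, Snhg3 at 1.68 and Snhg18 at 2.75), none lower and a median of 0.45 (3.59% of all genes were higher). Alpha had 2 of 16 higher (2.5%) and a median of 0.33, and delta 3 of 14 (3.38%) and 0.19. Gamma had 2 of 13 higher (6.69%), 1 lower (8.14%) and a median of 0.17. Endothelial had 2 of 11 higher (7.25%), 1 lower, Snhg6 (10.9%), and a median of -0.09. Zfas1 in alpha-gated cells stood at 219 CPM there, against 170 in WT. Against each other, without WT, alpha-gated Snhg6 in SC35-KO was 2.68 times (2.24 to 3.22) that in ASF-KO.

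Snhg6 and several other hosts begin with a C and a run of pyrimidines in at least 1 annotated transcript. Such a start is the mark of TOP mRNAs and is printed here in capitals over the opening 30 bases, for 4 hosts that were lower in ASF-KO alpha-gated cells.

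Snhg6-203: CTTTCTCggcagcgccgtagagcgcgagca
Zfas1-202: CCTTTCgttccggcggctcctagagcgttt
Snhg12-204: CTTTCTCgcttcatccgcggtccctgtctg
Snhg8-201: CCCTCgcgcgcaggctcttgggagagcgtc

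A C followed by at least 4 pyrimidines opened at least 1 transcript of 8 of 17 hosts in the annotation, Gas5 and Snhg3 among them, and of 4.55% of all GENCODE M21 genes. It opened 2.02% of all transcripts, read on the transcript strand. Hosts have many annotated transcripts (25 for Gas5), which raises the chance of a match, and where transcription begins in these cells was not measured. Snhg11 had no such start and was not lower relative to the median gene by the fold in any class. Snhg9, Snhg18 and Epb41l4aos had none either and were lower in ASF-KO alpha-gated cells, at 0.562, 0.498 and 0.388 relative to the median gene. Snhg14 has such a start and was not lower, at 0.906 in alpha and 1.28 in delta. Gas5 (0.574) and Snhg3 (0.396), which have the start, were lower in ASF-KO alpha-gated cells, as were the hosts printed above. Snhg1 (0.760), Snhg17 (0.841), Snhg20 (0.764) and Dancr (0.899) have no such start and were not lower there by the fold. The part of the start in these levels was not tested. The 14 protein-coding TOP genes were nearer the median gene, with median log2 ratios in ASF-KO of -0.02 in beta, -0.26 in alpha and -0.30 in endothelial. In beta 1 was higher (9.05% of all genes) and 2 lower (8.11%). In alpha 4 were lower (6.81%), and in endothelial 2 were lower (12.6%). In SC35-KO the medians were 0.22, 0.22 and 0.02, with 1 of 14 higher in beta (3.59% of all genes).

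Miat was close to absent. Over all kept cells it had 35 UMIs in WT, 12 in the ASF-KO library and 19 in the SC35-KO library, or 0.240, 0.0891 and 0.143 CPM. Alpha-gated cells held most of the gated UMIs, with 19, 3 and 9, against 8, 1 and 2 in beta. In WT the alpha level of 1.37 CPM (0.825 to 2.14) lay above the beta level of 0.0726 (0.0313 to 0.143). The ratio of ASF-KO to WT in alpha was 0.161 (0.0306 to 0.548) from 3 and 19 UMIs. No Miat UMI was counted in delta- or gamma-gated cells of any library.

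Other long noncoding RNAs were mostly near the median gene in beta-gated cells, but less so in some other classes. In beta-gated cells 3 of 13 were lower in ASF-KO (1500026H17Rik at 0.407, 2410006H16Rik at 0.418 and Peg13 at 0.547), against 8.11% of all genes, and none higher (9.05%), with a median log2 ratio of -0.17. In SC35-KO 1 of 13 was lower (2.58%), Gm42418 (0.517), with a median of -0.02. Gm42418 was also lower in SC35-KO alpha (0.427), gamma (0.390) and endothelial (0.458). In ASF-KO it stood at 1.47 in beta, 1.46 in alpha, 1.28 in delta, 1.02 in gamma and 1.47 in endothelial. It is an unnamed gene model, at 52656 CPM in WT endothelial-gated cells, and what its reads come from was not tested. Lncpint was lower in SC35-KO alpha (0.653, beside 2.77% of all genes), gamma (0.585, 8.14%) and endothelial (0.515, 10.9%). Higher in SC35-KO gamma were Rian (1.64), Firre (1.61), Ftx (1.57), Gm26917 (1.53) and Airn (1.52), against 6.69% of all genes. In SC35-KO endothelial Rian (1.96) and Airn (2.26) were higher (7.25%). In ASF-KO 2410006H16Rik was also lower in alpha (0.317, beside 6.81%), delta (0.368, 7.8%), gamma (0.283, 13.1%) and endothelial (0.305, 12.6%). Higher in ASF-KO endothelial were Mir99ahg (2.07), Mir22hg (1.99), Airn (1.76) and Lncpint (1.53), against 9.29%. In ASF-KO gamma Firre (1.78) and Mir22hg (1.76) were higher (9.32%). Meg3 stood at 1086 CPM in WT beta-gated cells, 695 in ASF-KO and 664 in SC35-KO, which is 0.865 and 0.827 relative to the median gene. Of 4 Y-linked genes, all measured in beta-gated cells, none was past the fold there in either KO library. Of all genes, 9.05% were higher and 8.11% lower there in ASF-KO, and 3.59% and 2.58% in SC35-KO.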

How the data were processed

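The authors deposited raw UMI counts, whole numbers by gene and barcode, without normalization. Cell Ranger 5.0.0 made them, per the file headers; mm10, Seurat and STAR also stand in the submitters' processing notes, with no role given. Barcodes needed 500 genes, 1000 UMIs and no more than 20% of UMIs from mitochondrial genes, and Scrublet doublets (291, 319 and 886 in WT, ASF-KO and SC35-KO) were removed. The WT group comes from a title, the others from genotype labels. Totals over all barcodes were 154099078, 148320213 and 150116204 UMIs.

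Cells were gated by their share of UMIs in hormone genes. Beta needed 25% insulin, alpha 5% Gcg, delta 5% Sst and gamma 20% Ppy, with low other hormones. Non-endocrine classes needed 3 or 4 detected markers, and cells passing for more than 1 class stayed ungated. These gates were set after the data were seen, and cells at 20% to 30% insulin numbered 110 in WT, 80 in ASF-KO and 96 in SC35-KO. UMIs were summed per class and library. Sums carry exact Poisson intervals, ratios the conditional binomial interval and shares exact Clopper-Pearson intervals, all for counting error only, since PCR and mouse-to-mouse spread are not covered. Ratios relative to the median gene divide by the median ratio of genes at 10 CPM or more. Rbm12, Snhg7, Norad, Nespas and Pint matched no symbol, and Snhg4 and Ddit3, whose symbols are duplicated, were left out. Named genes are the 6 members, from each list up to 4 with the largest ratio in beta-gated cells plus examples chosen after their values were seen, and the 5 most correlated genes for Malat1 and Neat1. The members and lists were chosen with earlier results of these data known. Alternatives were other scalings, cell filters, Leiden clusters (resolution 1, 30 components, 15 neighbours), doublets kept, thinning, means over cells and matched depth. Ratio intervals were tested on simulated data. Clustering used scanpy 1.11.5, intervals scipy 1.17.1, and figures matplotlib 3.10.9, under python 3.11.15. Sequences come from GENCODE M21.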

Additional observations from a re-analysis of the deposited data

Results flagged for a closer look

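Snhg11 lay on opposite sides of WT in different endocrine classes of the library labelled ASF-KO, with a ratio to WT of 1.45 in alpha-gated cells, 1.76 in delta and 0.683 in beta, scaled to all UMIs. The median gene of beta-gated cells had a ratio of 0.741, and relative to it Snhg11 stood at 0.922 there. Kcnq1ot1 did so in the library labelled SC35-KO, with ratios of 1.28 in delta-gated cells and 1.57 in endothelial against 0.675 in beta and 0.831 in alpha. Relative to the median gene these were 1.27, 1.52, 0.913 and 0.949. With 1 library per genotype the difference between classes was not tested.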

How the results depend on the processing

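No paired analysis was possible because each genotype has 1 library. No replicate could be left out for the same reason. The 102 single results, recomputed under the other settings, gave 857 values that moved by less than the counting interval, 177 that moved further and 3 that turned direction. These were Snhg6 of ASF-KO to WT in delta-gated cells at 1.08 when thinned to 2000 UMIs (0.474 otherwise), Snhg6 of SC35-KO to WT in endothelial-gated cells at 1.0035 among cells of 5000 to 20000 UMIs (0.620), and Snhg11 of SC35-KO to ASF-KO in gamma-gated cells at 0.862 with clusters in place of gates (1.10). The cause was not tested. Member and class pairs higher by 1.5-fold than WT under the label SC35-KO numbered 2, and 1 with the stricter cell filter, with clusters, with doublets kept and at 5000 to 20000 UMIs, and 4 with means over cells. Pairs higher by that fold under SC35-KO than under ASF-KO numbered 5, and 3 when thinned to 2000 UMIs. Leaving out the cluster headed by Gm26917 and Meg3, added after the data were seen, moved none of the 109 results beyond their interval. Most of its cells were in no gated class, so this setting could change little. Depth limits Miat in all classes, Snhg6 in gamma and endothelial, and Snhg11 in endothelial cells.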
